A study of Mus musculus with 7 samples.

Results

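The matrix-binding integrins described here are the 10 genes Itga1, Itga5, Itga7, Itga10, Itga11, Itgav, Itgb1, Itgb3, Itgb5 and Itgbl1, chosen by gene symbol out of 42689 mouse genes measured by RNA sequencing in hindlimb tendon. All animals were of C57BL/6 background. The contralateral group (n = 3 libraries) is the uncut right Achilles region of mice that, 3 weeks earlier, had received a scald burn (30% of the body surface, exposed for 18 s to a block at 60 °C) together with transection of the left Achilles tendon. The tenotomy group (n = 2) is the transected left tendon region of such mice at the same 3 weeks, and the uninjured group (n = 2) is the same region of wild-type mice with neither burn nor tenotomy. Contralateral limbs therefore share the burn with the tenotomy site, and only the uninjured mice lack it. The tissue taken reached from the calf muscle insertion to the heel bone. The series addresses heterotopic ossification, the growth of bone in soft tissue after injury, and the kinase TAK1, but these 7 libraries differ by injury and not by TAK1 genotype as far as the labels say. No label says which libraries come from separate mice or which limbs belong to one mouse, so p-values measure the spread between these libraries, which may be partly technical.

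Integrins are paired receptors of one alpha and one beta chain that hold cells to the extracellular matrix and carry force and signals across the membrane. The α1, α10 and α11 chains bind collagens, α5 binds fibronectin, αv binds fibronectin, vitronectin and other proteins with an RGD motif, and α7 binds laminin. All of these except αv pair with β1 alone, and αv pairs with β1, β3, β5 and others. In tendon, collagen receptors on fibroblasts meet the collagen fibres, whereas the laminin receptor of α7 and β1 anchors muscle fibres at the muscle-tendon junction. Itgbl1 differs from the other members: it encodes a secreted protein with EGF-like repeats related to those of beta chains, and it is not a receptor subunit.

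Library totals ran from 25927171 to 36725106 estimated counts, of which 76.4% to 81.4% fell on 5 features, leaving 4934057 to 8375626 counts for all others. The 2 uninjured libraries did not resemble each other: over 16028 genes their distance in log2 CPM (counts scaled to a common library size, with TMM scaling factors) was 114.0, whereas uninjured replicate 1 lay 59.6 and 61.1 from the tenotomy libraries and uninjured replicate 2 lay 64.5 to 67.4 from the contralateral ones. For all 10 integrin genes, too, uninjured replicate 1 was nearer to the tenotomy mean and replicate 2 nearer to the contralateral mean. The groups were kept as labelled. Whether these libraries carry the right labels was not tested, so the uninjured values hold only as far as those labels do, and the CPM of the 10 genes in that group is given per library. Tendon markers were present in every library, the summed level of 9 of them being 180 to 301 CPM in contralateral, 453 to 455 in tenotomy and 274 to 401 in uninjured libraries. Skeletal muscle markers were also present in every library, at a summed level of 9860 to 12715 CPM in contralateral tissue and about 1040 in tenotomy tissue.

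At the tenotomy site 5 of the 10 genes rose and 1 fell against the contralateral limb. The collagen receptor chain Itga11 rose most, 5.82-fold, followed by the secreted Itgbl1 (2.88-fold), the beta chain Itgb3 (2.79-fold), the fibronectin receptor chain Itga5 (1.93-fold) and the αv partner Itgb5 (1.66-fold). The laminin receptor chain Itga7 fell to 0.558 of its contralateral level. Itga10, Itga1, Itgb1 and Itgav did not pass the test. All 10 genes were tested, and calls are those with an adjusted p under 0.05 in edgeR's quasi-likelihood test (fit of all 7 libraries, Benjamini-Hochberg adjustment over 16028 genes). The same test called 29.0% of all genes in this comparison, 13.6% higher and 15.4% lower. The median log2 fold change was 0.84 over the 10 genes and -0.0012 over all genes tested. In all 10 genes the 2 tenotomy libraries lay outside the range of the 3 contralateral libraries, as did 63.7% of all genes; 8 of the 10 lay above (31.9% of all genes) and 2 below (31.8%). Leaving any 1 contralateral library out of the fit of all 7 left no gene called, neither these 6 nor any other. In those edgeR fits 6 or 7 of the 10 genes were at an unadjusted p under 0.05, as were 5413 to 6148 of all genes. Calls were likewise lost without either tenotomy library, when 1 library stood for that group. A fit of the tenotomy and contralateral libraries alone called 9 of the 10 genes and 7385 genes in all, against 4643 in the fit of all 7. When each of its 5 libraries was left out in turn, it called 8 to 10 of the 10 and 5245 to 7618 in all. Because tissue was sequenced in bulk, a change in the number of cells of a type and a change in RNA per cell cannot be told apart.

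**Figure D1:**
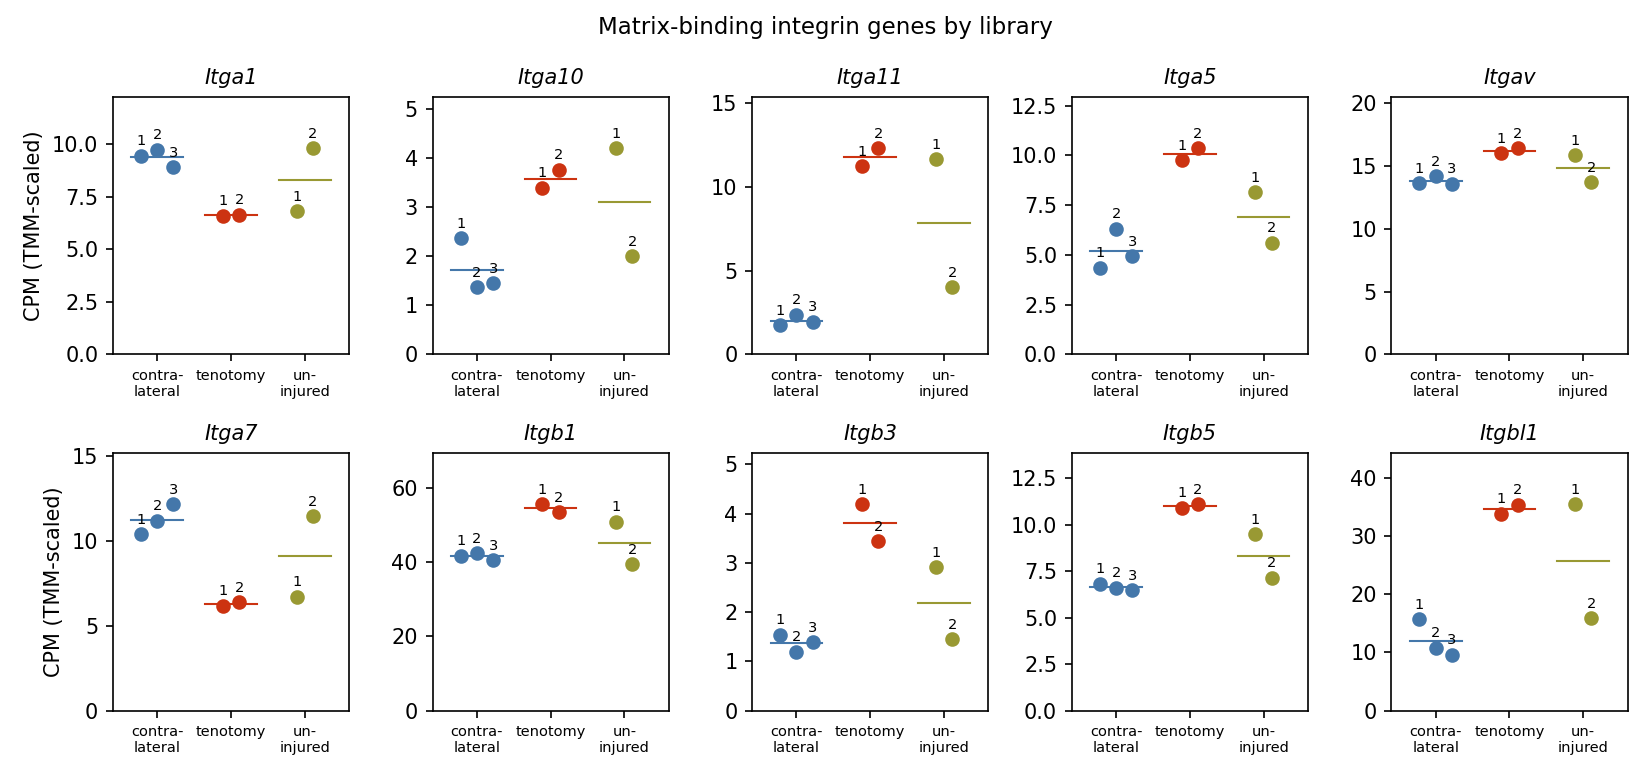
Level of each of the 10 genes in CPM (linear axis starting at 0) in every library, with the replicate number at each point and the group mean as a line. The tenotomy points lie outside the contralateral range in all 10 panels, and uninjured replicates 1 and 2 lie apart, as for Itga11 at 11.7 and 4.03 CPM.

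Among the collagen receptor chains, Itga11 (ENSMUSG00000032243.8, chr9:62677826-62783982, plus strand, GRCm38), the chain for fibrillar collagen on fibroblasts, was at 1.72, 2.36 and 1.95 CPM in the contralateral libraries, 11.2 and 12.3 in tenotomy, and 11.7 and 4.03 in uninjured replicates 1 and 2. Both tenotomy libraries and uninjured replicate 1 were high, and all 3 contralateral libraries were low with no overlap. The log2 fold change, tenotomy minus contralateral, was 2.54 ± 0.40 (SE; adjusted p = 0.0167, edgeR). Part of the rise sat on an annotated transcript with a retained intron, Itga11-202, which took 0% to 12.0% of the gene's counts in contralateral, 16.6% to 21.6% in tenotomy, and 30.2% and 12.1% in the uninjured libraries. Counting only the protein-coding transcript gave a log2 fold change of 2.32 (adjusted p = 0.0169, edgeR).

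Itga10 (ENSMUSG00000090210.7, chr3:96645584-96664519, plus strand), a collagen receptor chain known from cartilage, was at 2.36, 1.37 and 1.45 CPM in contralateral, 3.40 and 3.77 in tenotomy, and 4.2 and 2.0 in uninjured libraries. Its difference of 1.07 ± 0.34 (SE) on the log2 scale, tenotomy minus contralateral, fell just short of the threshold (adjusted p = 0.052, edgeR). The adjusted p lay between 1.56e-05 and 0.212 over the alternatives, and limma-voom placed it past the threshold at 0.0456. Itga1 (ENSMUSG00000042284.10, chr13:114953096-115101964, minus strand), which prefers the collagen of basement membranes and is also made by smooth muscle and endothelium, pointed the other way: it was at 9.44, 9.73 and 8.91 CPM in contralateral, 6.58 and 6.63 in tenotomy, and 6.79 and 9.81 in uninjured libraries. The tenotomy and contralateral groups did not overlap, but their log2 difference of -0.50 ± 0.18 (SE) did not pass the test (adjusted p = 0.0716, edgeR). The ratio of Itga11 to Itga1 in TPM, a level per transcript length, was 0.223 to 0.295 in the contralateral libraries and 2.25 to 2.40 in tenotomy, with 2.34 in uninjured replicate 1 and 0.525 in replicate 2.

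Among the receptors for fibronectin and other RGD proteins, Itga5 (ENSMUSG00000000555.8, chr15:103344286-103366763, minus strand), the main fibronectin receptor chain, was at 4.35, 6.32 and 4.92 CPM in contralateral, 9.76 and 10.4 in tenotomy, and 8.16 and 5.61 in uninjured libraries. Tenotomy libraries were the highest of all 7, and the log2 fold change against contralateral was 0.95 ± 0.21 (SE; adjusted p = 0.0192, edgeR). Itgb3 (ENSMUSG00000020689.4, chr11:104608000-104670476, plus strand), an αv partner that platelets and osteoclasts also carry, was at 1.54, 1.2 and 1.39 CPM in contralateral, 4.19 and 3.43 in tenotomy, and 2.91 and 1.45 in uninjured libraries. It had 41 to 45 counts in each contralateral library and 103 to 154 in tenotomy, and its log2 fold change was 1.48 ± 0.28 (SE; adjusted p = 0.0167, edgeR).

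Itgb5 (ENSMUSG00000022817.15, chr16:33829665-33949338, plus strand) encodes the partner of αv in a vitronectin receptor. It was at 6.82, 6.60 and 6.46 CPM in contralateral, 10.9 and 11.1 in tenotomy, and 9.49 and 7.16 in uninjured libraries. Its contralateral libraries were close together (SD 0.180), and the log2 fold change was 0.73 ± 0.16 (SE; adjusted p = 0.0175, edgeR). When TPM scaled by length replaced the counts, this call was lost (adjusted p = 0.0937, edgeR). Itgav (ENSMUSG00000027087.11, chr2:83724397-83806916, plus strand), the alpha chain that Itgb3 and Itgb5 share, was at 13.6, 14.2 and 13.6 CPM in contralateral, 16.0 and 16.4 in tenotomy, and 15.9 and 13.7 in uninjured libraries. The difference of 0.23 ± 0.14 (SE) on the log2 scale did not pass the test (adjusted p = 0.253, edgeR).

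The laminin receptor chain Itga7 (ENSMUSG00000025348.9, chr10:128933818-128958282, plus strand), abundant in skeletal muscle, was at 10.4, 11.2 and 12.2 CPM in contralateral, 6.17 and 6.37 in tenotomy, and 6.72 and 11.5 in uninjured libraries. It was low in both tenotomy libraries and in uninjured replicate 1, and its log2 fold change was -0.84 ± 0.23 (SE; adjusted p = 0.0323, edgeR). Muscle markers moved in the same libraries: all 15 listed genes, found in every library, were called lower at the tenotomy site (15.4% of all genes). Their summed level was 1298 CPM in uninjured replicate 1 and 9284 in replicate 2. Itga7 at the tenotomy site held 0.558 of its contralateral level. The median log2 fold change of the muscle markers was -3.31. The part of muscle content in the Itga7 result was not tested.

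Itgb1 (ENSMUSG00000025809.15, chr8:128685654-128733200, plus strand), the beta chain shared by most of these receptors, was at 41.7, 42.4 and 40.5 CPM in contralateral, 55.6 and 53.5 in tenotomy, and 50.9 and 39.4 in uninjured libraries. The tenotomy libraries were the highest, but the log2 difference of 0.39 ± 0.18 (SE) did not pass the test (adjusted p = 0.13, edgeR). It was called in the edgeR fit of the tenotomy and contralateral libraries alone (0.39, adjusted p = 0.00355). With length-scaled TPM the difference was 0.13 (adjusted p = 0.684, edgeR). The transcript Itgb1-201 alone was at 1.70, 1.69 and 1.31 TPM in contralateral and 1.98 and 2.15 in tenotomy libraries. The part of the short transcript Itgb1-204, described below, in the length-scaled value was not tested. With the number series of the sample titles as a covariate the log2 difference for the gene was 0.42, an estimate that rests on tenotomy replicate 1 alone. The gene is known to be spliced into a general form, β1A, and a form of striated muscle, β1D, which differ in the end of the cytoplasmic tail. The 2 alternative coding ends are printed here because the share of the transcript with the β1D end did not overlap between the tenotomy and contralateral libraries. They come from the GRCm38 genome by GENCODE M21 exons: the β1D end is 72 coding bases of exon 3 of Itgb1-204 (chr8:128726983-128727054), and the β1A end is 63 coding bases of exon 16 of Itgb1-201 (chr8:128732023-128732085), both on the plus strand. Capitals mark the codons of the NPxY motifs, which bind talin and kindlin, as found on the plus strand in the reading frame.
β1D end: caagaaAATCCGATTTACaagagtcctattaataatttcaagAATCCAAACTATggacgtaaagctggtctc
β1A end: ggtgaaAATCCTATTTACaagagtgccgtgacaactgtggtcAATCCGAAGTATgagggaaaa
Both ends hold the motif codons 2 times, starting at bases 7 and 43, and 41 of 63 bases are identical when aligned from the first base without gaps.

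The annotated transcript that carries the β1D end, Itgb1-204, received 36.9, 66.4 and 43.4 estimated counts in contralateral, 14.4 and 6.80 in tenotomy, and 4.84 and 19.4 in uninjured libraries. Its share of the gene's TPM was 21%, 26.1% and 20.8% in contralateral, 4.98% and 3.09% in tenotomy, and 2.50% and 11.4% in uninjured replicates 1 and 2. The libraries low in the β1D end were the same ones low in Itga7 and in muscle markers. The tenotomy and contralateral groups did not overlap. The share of β1D by TPM was 22.6% ± 3.01 (SD, n = 3) in contralateral and 4.04% ± 1.34 (SD, n = 2) in tenotomy tissue, and no test was run on it. Itgb1-204 is an incomplete model of 711 bases, so reads from the rest of a β1D RNA can be assigned only to other Itgb1 transcripts, and the share of counts was smaller, 3.70% ± 0.661 (SD) and 0.564% ± 0.198 (SD). Both shares are estimates of the split between transcripts that share sequence.

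**Figure D2:**
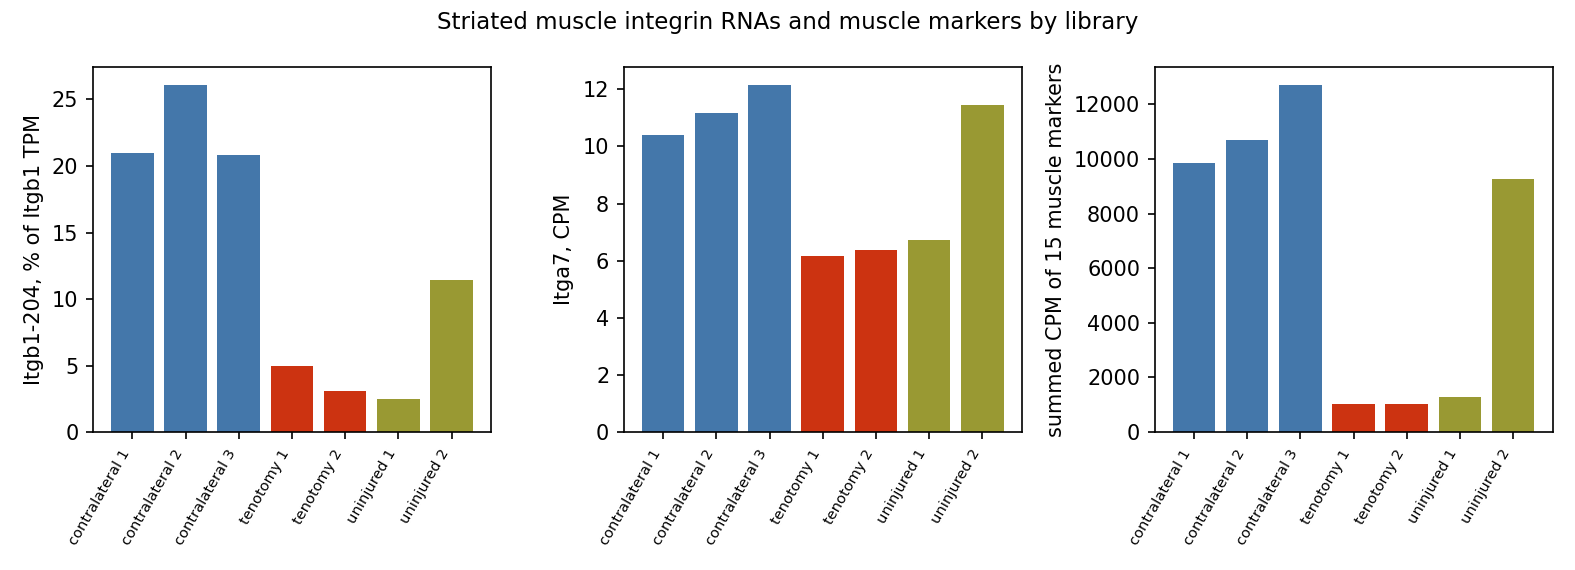
Bars from 0 give, for each library, the share of Itgb1 TPM on Itgb1-204 (percent), the level of Itga7 (CPM) and the summed level of 15 skeletal muscle markers (CPM). Both tenotomy libraries and uninjured replicate 1 are low in all 3 panels, with Itgb1-204 between 2.50% and 4.98%.

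Itgbl1 (ENSMUSG00000032925.16, chr14:123659971-123975618, plus strand), the secreted beta-like protein, was at 15.7, 10.8 and 9.59 CPM in contralateral, 33.9 and 35.5 in tenotomy, and 35.5 and 15.9 in uninjured libraries. The tenotomy libraries and uninjured replicate 1 were nearly equal, and uninjured replicate 2 lay just above the highest contralateral library. The log2 fold change, tenotomy minus contralateral, was 1.53 ± 0.35 (SE; adjusted p = 0.0193, edgeR). By mean TPM, a level per length, it came after Itgb1 in each of the 3 groups, but in contralateral replicates 2 and 3 both Itgb5 and Itga7, and in uninjured replicate 2 Itgb5, stood above it.

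**Figure D3:**
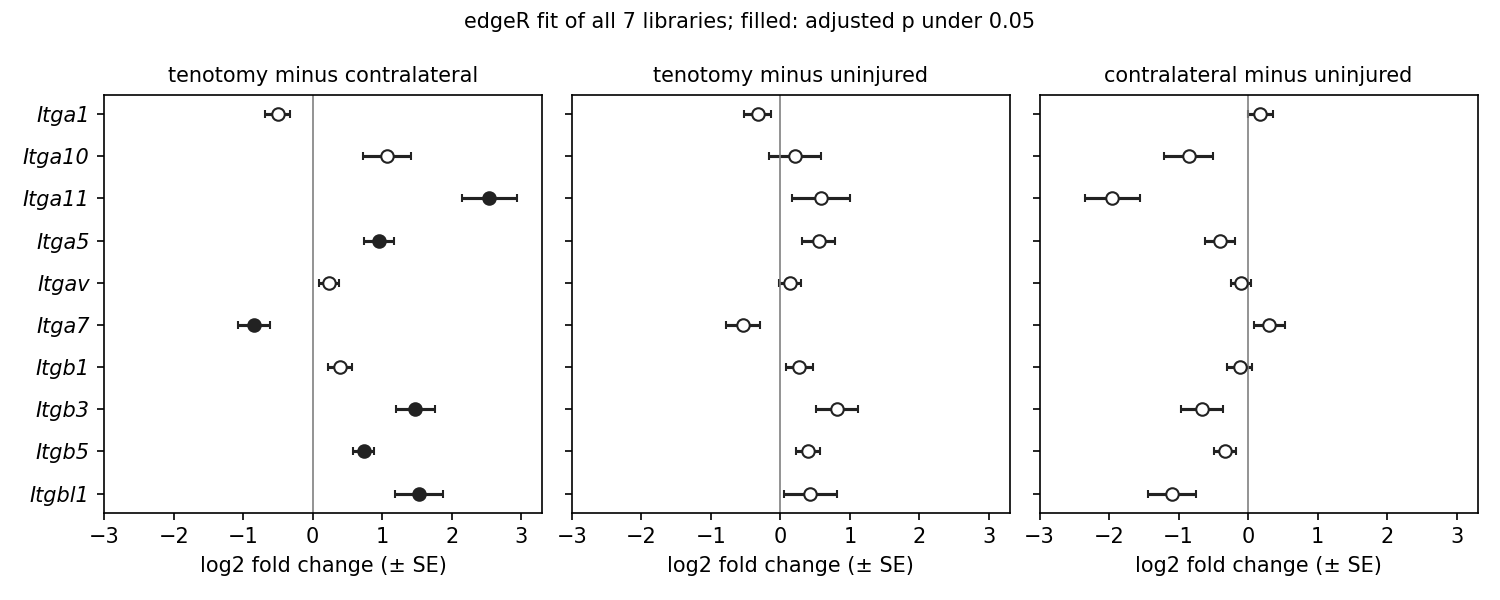
Log2 fold change with its SE for each of the 10 genes in the 3 comparisons, from the edgeR fit of all 7 libraries; filled points have an adjusted p under 0.05. Filled points appear in the tenotomy minus contralateral panel, where Itga11 is farthest from 0 at 2.54 and Itga7 is the filled point below 0.

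The number in each sample's title falls into 3 series, which no label calls a batch: tenotomy replicate 1 shares one with all contralateral libraries, tenotomy replicate 2 shares one with uninjured replicate 1, and uninjured replicate 2 is alone. Within the first series, tenotomy replicate 1 lay outside the contralateral range for all 10 genes, and its log2 CPM minus the contralateral mean was 2.46 for Itga11, 1.57 for Itgb3, 1.52 for Itgbl1, 0.92 for Itga5, 0.71 for Itgb5 and -0.85 for Itga7. Tenotomy replicate 2, from the other series, gave 2.59, 1.29, 1.59, 1.01, 0.74 and -0.81 for the same genes. Within the series that tenotomy replicate 2 shares with uninjured replicate 1, the differences were small, from -0.16 for Itga10 to 0.34 for Itga5, with 0.078 for Itga11.

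Levels of different genes were compared per length, in TPM summed over each gene's transcripts. In the contralateral limb Itgb1 led at 2.11 ± 0.367 TPM (SD, n = 3), followed by Itgbl1 (0.462), Itgb5 (0.440), Itga7 (0.418) and Itgav (0.380), of which each overlapped the next in range. Itga1 (0.231) and Itga5 (0.178) came next and overlapped each other, and Itga11 (0.0610), Itga10 (0.0565) and Itgb3 (0.0355) formed the lowest group, again overlapping. At the tenotomy site Itgb1 stayed first at 2.20 ± 0.0369 TPM (SD, n = 2), and Itgbl1 (1.26), Itgb5 (0.599) and Itgav (0.408) followed without overlap. Itga11 (0.368) and Itga5 (0.334), which overlapped, stood above Itga7 (0.228), Itga1 (0.158), Itga10 (0.125) and Itgb3 (0.0939). In the uninjured mice the ranges of Itgav, Itga7, Itga11, Itga5 and Itga1 overlapped from one to the next, since the 2 libraries differed.

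The make-up of the alpha chains was compared within each library, free of scaling between libraries. Of the summed TPM of the 6 alpha chains, Itga11 held 4.61% ± 0.601 (SD, n = 3) in contralateral and 22.6% ± 1.12 (SD, n = 2) in tenotomy tissue, and Itga7 held 31.8% ± 2.90 and 14.1% ± 0.257. Itga1 held 17.4% ± 0.440 and 9.74% ± 0.0268, and Itga5 held 13.4% ± 2.24 and 20.6% ± 0.804. Itgav held 28.5% ± 3.19 and 25.2% ± 1.77. In the contralateral limb the ranges of Itga7 and Itgav overlapped, and Itgav held more than Itga7 in replicate 1. At the tenotomy site Itgav and Itga11 were the largest shares, both above Itga7. In uninjured replicates 1 and 2 the Itga11 share was 23.8% and 8.93%, and the Itga7 share 15.3% and 30.3%. These shares are descriptions with no test, and with protein-coding transcripts alone Itga5 led at the tenotomy site with 23.5%, followed by Itgav at 22.9% and Itga11 at 19.5%. Of the beta chains, Itgb1 held 81.7% ± 0.881 in contralateral and 76.1% ± 1.73 in tenotomy tissue. Itgb5 held 16.9% ± 0.977 and 20.7% ± 1.56, and Itgb3 1.39% ± 0.257 and 3.24% ± 0.166. Part of the Itgb5 TPM sat on short transcripts with few counts. In tenotomy replicate 1, Itgb5-204 held 22.2% of it on 3.0 counts, and in tenotomy replicate 2 it held 0%.

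**Figure D4:**
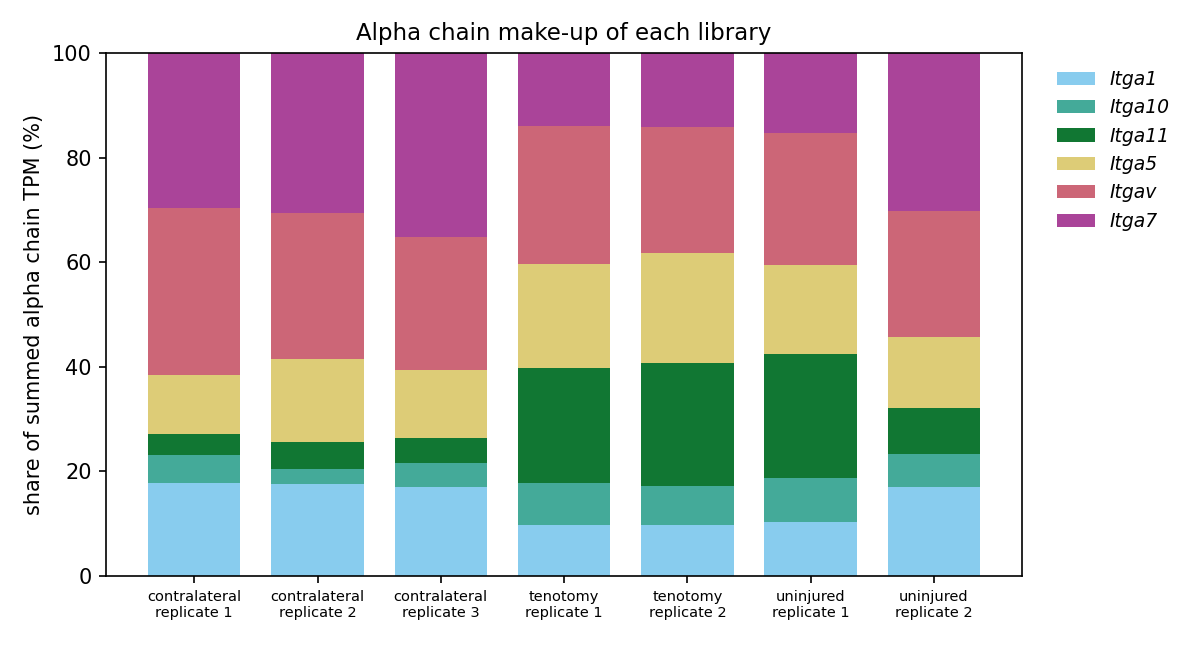
Share of each of the 6 alpha chains in their summed TPM (percent, stacked from 0 to 100) in every library. Itga11 takes 21.9% and 23.4% in the tenotomy libraries and between 3.96% and 5.15% in the contralateral ones, while Itga7 takes between 29.8% and 35.2% of the contralateral bars.

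Against the uninjured mice, none of the 10 genes was called at the tenotomy site, and edgeR called 0% of all genes. At an unadjusted p under 0.05, 2 of the 10 (Itgb3 and Itgb5) and 10.9% of all genes stood out, and the groups did not overlap for 7 of the 10, against 40.5% of all genes: 5 lay higher in tenotomy (20.1% of all genes) and 2 lower (20.4%). The log2 differences, tenotomy minus uninjured, were 0.81 ± 0.31 (SE) for Itgb3, 0.59 ± 0.42 for Itga11, 0.55 ± 0.24 for Itga5, 0.43 ± 0.38 for Itgbl1, 0.40 ± 0.17 for Itgb5, 0.27 ± 0.20 for Itgb1, 0.21 ± 0.37 for Itga10, 0.13 ± 0.16 for Itgav, -0.33 ± 0.20 for Itga1 and -0.54 ± 0.25 for Itga7. DESeq2 called none of the 10 and 145 genes in all. The result turned on 1 library: without uninjured replicate 1, edgeR called 9 of the 10 genes and 4275 of all genes, whereas without uninjured replicate 2 it called none of the 10 and 14 of all genes.

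Between the contralateral limb of burned mice and the uninjured mice, none of the 10 genes was called by edgeR, which called 0% of all genes (19.2% at an unadjusted p under 0.05, and 223 genes by DESeq2). The lowest p was that of Itga11, with a log2 difference, contralateral minus uninjured, of -1.96 ± 0.40 (SE; adjusted p = 0.215), and the 3 contralateral libraries all lay below both uninjured ones. DESeq2 called Itga11 (adjusted p = 0.00198). Over the alternatives for this gene the adjusted p ran from 5.26e-07 to 0.82, and the difference was -0.99 without uninjured replicate 1. Itgbl1 (-1.10 ± 0.35 SE) and Itga10 (-0.86 ± 0.35 SE) were the others with an unadjusted p under 0.05. Groups did not overlap for 3 of the 10 genes, all lower in the contralateral limb, against 35.5% of all genes (16.6% lower and 18.9% higher). Without uninjured replicate 2, edgeR called 8 of the 10 genes and 5393 genes in all, and without uninjured replicate 1 it called 1 of the 10 and 105 in all. With the series of the title number as a covariate the difference was -2.39 for Itga11, -1.50 for Itgbl1 and -1.38 for Itgb3. No title series holds both groups, so that fit compares them through the tenotomy libraries. Uninjured replicate 2 is alone in its series, so of the uninjured group these estimates use replicate 1 only. Both comparisons with the uninjured group share its 2 libraries.

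Most listed matrix ligands of these receptors were called higher at the tenotomy site, but most laminin chains were not. Of the 25 ligands that passed the filter on low counts, 17 were called higher than contralateral (13.6% of all genes) and 1 lower (15.4%). Their median log2 fold change was 1.73, against -0.0012 for all genes. Among laminin chains, Lama4 and Lamb1 were called higher and Lamb3 lower, while Lama2, Lama3, Lama5, Lamb2 and Lamc1 were not called. Vtn, vitronectin, and Spp1 were not called either. Postn, which encodes periostin, a ligand of αv integrins, averaged 387 CPM in tenotomy and 9.42 in contralateral libraries (log2 fold change 5.36 ± 1.01 SE; adjusted p = 0.0167, edgeR). Fn1, fibronectin, averaged 1030 and 89.7 CPM (3.52 ± 0.73 SE; adjusted p = 0.0171), and Tnc, tenascin C, 78.7 and 7.0 CPM (3.49 ± 0.61 SE; adjusted p = 0.0167). None of the 25 was called against the uninjured mice, where Postn was at 278 CPM in one library and 13.7 in the other. Tnc is also on the tendon marker list, and Col1a1 and Col3a1 are also on the fibroblast marker list.

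Genes of latent TGF-β, which αv integrins can activate, and of its binding proteins were also measured. Of 7, 4 were called higher (13.6% of all genes) and none lower (15.4%), with a median log2 fold change of 0.92. The 4 were Tgfb1, Ltbp1, Ltbp2 and Ltbp3, while Tgfb2, Tgfb3 and Ltbp4 were not called. Ltbp3 averaged 19.1 CPM in tenotomy and 9.59 in contralateral libraries (0.99 ± 0.19 SE; adjusted p = 0.0167, edgeR), and Ltbp1 17.6 and 9.29 CPM (0.92 ± 0.20 SE; adjusted p = 0.0177); both encode proteins that bind latent TGF-β to the matrix. Adhesion adaptors, the proteins that tie integrin tails to actin, were split. Of 22, 6 were higher and 5 lower, against 13.6% and 15.4% of all genes, with a median of 0.18. Tns3 rose (1.06 ± 0.25 SE; adjusted p = 0.0205), while Tns1 (-1.04 ± 0.27 SE; adjusted p = 0.0273), a tensin like Tns3, and Fermt2 (-0.89 ± 0.23 SE; adjusted p = 0.026), the kindlin of most tissues, fell. Itgb1bp2, which encodes melusin, a binding partner of the β1 tail in striated muscle, was singled out after its values were seen: it averaged 0.888 CPM in tenotomy and 7.81 in contralateral libraries (-3.14 ± 0.69 SE; adjusted p = 0.0181, edgeR).

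Of 17 other integrin chains, 16 passed the filter. At the tenotomy site 5 were called higher (13.6% of all genes) and 2 lower (15.4%), with a median log2 fold change of 0.67. These 7 are named after their values were seen. The leukocyte chains Itgax (4.10 ± 0.76 SE; adjusted p = 0.0167, edgeR), Itgb2 (2.18 ± 0.58 SE; 0.029) and Itgam (1.79 ± 0.52 SE; 0.0369) rose, as did the platelet chain Itga2b (2.83-fold; 0.0362), whose highest count in any library was 35. Itgax had 3 to 6 counts in the contralateral libraries and 84 to 88 in tenotomy, so its fold change is poorly fixed. Of other leukocyte chains, Itgal, Itgae and Itgb7 were not called, and Itgad did not pass the filter. Itgb8, another αv partner, rose from 2.99 ± 0.439 CPM (SD, n = 3) to 12.9 ± 1.11 (SD, n = 2). That is 2.12 ± 0.41 (SE) on the log2 scale (adjusted p = 0.0167, edgeR). Itgb6, the αv partner known from epithelia, fell from 8.63 ± 0.954 to 1.53 ± 0.183 CPM, or by 2.49 on the log2 scale (adjusted p = 0.0167, edgeR), and Itga8, which pairs with β1, fell by 1.03 (adjusted p = 0.0242, edgeR). Of the αv partners measured, Itgb3, Itgb5 and Itgb8 were therefore called higher and Itgb6 lower, and Itgb1 was not called.

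Markers of other cell types moved with these results, in a comparison where 13.6% of all genes were called higher and 15.4% lower. Fibroblast markers (6 of 7 called higher at the tenotomy site) summed to 721 to 878 CPM in contralateral, 4945 to 4952 in tenotomy, and 4507 and 2814 CPM in uninjured replicates 1 and 2. Macrophage and leukocyte markers (8 of 9 higher) summed to 22.3 to 28.8, 109 to 112, and 113 and 28.6 CPM. Osteoclast markers (2 of 4 tested higher) summed to 6.15 to 6.97, 29.1 to 30.1, and 28.2 and 8.33 CPM, with Calcr at 0 counts in both tenotomy libraries. Cartilage markers (6 of 7 tested higher) summed to 6.59 to 10.4, 264 to 268, and 84.8 and 21.8 CPM, with Matn1 at 0 in all contralateral and uninjured libraries. Smooth muscle and pericyte markers (5 of 7 lower, 1 higher) summed to 195 to 221 CPM in contralateral and about 100 in tenotomy libraries, and endothelial markers (1 of 6 lower) to 52.2 to 63.0 and 46.1 to 57.9 CPM. Platelet markers summed to under 3 CPM in every library, and 1 of the 5 passed the filter. The part of any of these cell types in the integrin results was not tested.

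Genes whose log2 CPM followed each member most closely over the 7 libraries were taken from 2012 genes with a mean log2 CPM of at least 3. Itga7 was most like Ank3, Pgam2 and Pkm (Pearson r of 0.998 for each), Itga11 like Sept8 (0.998), Rnase4 and Maged1 (0.996 each), Itgb1 like Myl6 (0.998), and Itgb5 like Anxa2 (0.998). Itgbl1 was most like Olfml3 (0.995), Itgav like Calr (0.995), Itgb3 like Myo9a (0.994), Itga1 like Pdzd2 (0.990), Itga5 like Gabarap (0.989) and Itga10 like Srsf11 (0.985). These values describe 7 libraries in 2 sets that lie apart, and between 39 and 545 of the 2012 genes reached an r above 0.95 with a given member. Within the 10 genes, Itga7 and Itgb1 ran opposite to each other (r = -0.98), and Itgb3 and Itgb5 together (r = 0.98). Such values did not set these pairs apart. Itga7 and Itgb5 stood at -0.98, Itga10 and Itgbl1 at 0.98, and the weakest pair, Itga5 and Itga10, at 0.72.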

How the data were processed

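RNA from 7 mouse hindlimb tendon libraries was sequenced; per the labels' protocols, libraries were made with a TruSeq kit from Trizol-extracted total RNA. Per the submitters' processing notes, reads went through FastQC 0.11.4 and kallisto (version not given in the sources used here). The notes name build GRCh38, a human build, although the transcript IDs are mouse. The deposited estimated counts carry no normalization. The authors' TPM are levels per effective length with one fixed total. Of 103639 transcripts, 101510 matched GENCODE M21 (GRCm38) without version. Estimated counts were summed per gene and rounded, and 2129 unmatched transcripts were kept as features; 16028 passed filterByExpr (minimum count 10). The fit was edgeR 4.0.16 (R 4.3.3), TMM scaling, 3 group means, all 7 libraries, Benjamini-Hochberg threshold 0.05; the SE is the log2 fold change over the square root of F, and log2 CPM used a prior count of 2. Replicates were numbered in accession order, which pairs none. No library pair agreed within sampling noise (chi-square per degree of freedom at least 4.2). Scripts were tested on simulated counts. Alternatives used DESeq2 1.42.0, limma 3.58.1 (voom), other scalings and filters, and each library left out.

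All 10 members were named whatever their values. Each list added up to 3 genes with the largest change between tenotomy and contralateral among those called, with mean log2 CPM of at least 3 and no overlap of libraries; no other integrin chain qualified. The 3 most similar genes per member had mean log2 CPM of at least 3 and no placeholder symbol. Members and lists were chosen with earlier results of these data known. Schwann (2 of 5 higher), adipose (3 of 5 lower), erythroid (2 of 5 higher) and proliferation (4 of 5 higher) marker lists were also counted in tenotomy against contralateral. The summed Schwann level nevertheless was lower in tenotomy, at 65.4 to 68.3 CPM against 92.3 to 105 in contralateral libraries.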

Additional observations from a re-analysis of the deposited data

How the results depend on the processing

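Of the 10 genes, 6 were called between tenotomy and contralateral. The count was 2 in a test against a 1.5-fold change (Itga11 and Itgb3), 6 to 9 under the other scalings, filters and fits of all libraries or of the compared groups alone, and 0 to 9 with 1 of the 7 libraries left out. In the compared groups alone, an alternative added after seeing the data, leaving out a library gave 8 to 10. Directions did not change in this comparison under any of these. Over all genes, 4643 calls became 1565 against a 1.5-fold change, 7385 in the compared groups alone, 0 to 7336 with a library left out, and 5245 to 7618 with a library left out of the compared groups alone. Upper quartile scaling moved the median of all genes to 0.11.

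For tenotomy against uninjured, the members called were 0 to 9 with a library left out, and all genes called were 145 with DESeq2, 15 with no filter, 4 with the title series as covariate and 0 to 4275 with a library left out. For contralateral against uninjured, the members called were 1 with DESeq2, 1 with no filter, 3 with the title series and 0 to 8 with a library left out; all genes called were 223, 337 and 2466 in the same 3 settings and 0 to 5393 with a library left out.

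The fit with the title series leaves uninjured replicate 2 out of its estimates. It takes tenotomy minus contralateral from tenotomy replicate 1, and tenotomy minus uninjured from tenotomy replicate 2 and uninjured replicate 1. Its counts above therefore rest on 1 library of the tenotomy or uninjured group. Differences that changed sign were uncalled in the main comparison. Tenotomy minus uninjured became, with the title series, -0.16 for Itga10, -0.0030 for Itgbl1, 0.039 for Tns1 and 0.15 for Fermt2; with each library left out it ran from -0.23 to 0.84, -0.033 to 1.13, -0.85 to 0.0059 and -0.62 to 0.091 for these genes, the reversal being that without uninjured replicate 2. Contralateral minus uninjured, with each library left out, ran from -0.068 to 0.46 for Itga1, -0.027 to 0.75 for Itga7, -0.20 to 0.0076 for Itgav, -0.29 to 0.075 for Itgb1 and -3.11 to 0.016 for Fn1, the reversal being that without uninjured replicate 1. It became 0.11 for Itgb1 and 0.14 for Ltbp1 with length-scaled TPM. Apart from the libraries behind the title series fit, the cause of these changes was not tested.

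With protein-coding TPM, 6 contralateral and 5 uninjured members kept their rank of 10; leaving out a library kept 6 to 10 contralateral and 4 to 7 uninjured ranks. Alpha chain shares with protein-coding TPM were 18.2% for Itga1 in contralateral, 22.9% for Itgav in uninjured, and in tenotomy 11.1% for Itga1, 23.5% for Itga5, 16.1% for Itga7, 6.92% for Itga10, 19.5% for Itga11 and 22.9% for Itgav. No paired analysis was possible because the labels give no replicate numbers and tie no limb to a mouse. At 41 to 63 counts in some libraries, Itgb3, Itga10 and Itga11 are the members most limited by depth.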
